A study of Mus musculus with 30 samples.

Results

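Fracture callus of diet-induced obese (DIO) and lean mice was compared on day 5 (d5) after injury, with 3 libraries of each group. These 6 of the 30 libraries of the series were chosen by diet and day alone, and every gene of the count table entered the comparison. All mice were male C57BL/6J, 20 weeks old at surgery, and received an open osteotomy of the right tibia, stabilised with an intramedullary nail. DIO mice had been raised on a high-fat diet and stayed on it until harvest, while lean mice were fed a lean diet. Each library came from the callus of 1 mouse, dissected free of the surrounding soft tissue and adjacent bone, and poly(A) RNA was sequenced with a stranded kit. The design holds 1 strain, 1 sex and whole tissue, so that fewer cells of a type and less RNA per cell cannot be told apart.

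On d5 a mouse callus holds infiltrating leukocytes, proliferating skeletal progenitors and the first cartilage. Interferons are secreted proteins that bind paired receptor chains on almost every cell and act through the kinases of the JAK family and transcription factors of the STAT and IRF families. The target genes encode antiviral effectors, immunity-related GTPases and the machinery that loads peptides on MHC class I. Interferon gamma, released mainly by T and natural killer (NK) cells, also raises MHC class II in macrophages and dendritic cells through the coactivator CIITA.

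The d5 libraries held 15898640 to 22248585 counted reads (median 16868497), and 15722 genes passed the filter on low counts. Callus identity was checked on markers. Col1a1, the main collagen of bone and fibrous tissue, lay between 20453 and 43283 CPM (counts scaled to library size) in all 6 libraries, and Col2a1, the main collagen of cartilage, between 1051 and 10685 CPM. Contributions of other tissues varied within groups. Summed CPM of 34 adult skeletal muscle genes was lowest in Lean replicate 3 (9054) and highest in Lean replicate 1 (37142). Hemoglobin genes took 0.279% of reads in Lean replicate 2 and 0.0366% to 0.104% elsewhere, and mitochondrial transcripts 3.09% in Lean replicate 1 and 1.28% to 1.97% elsewhere. The part of these differences in the results was not tested.

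The sequences below are the 250 bases before the transcription start of 5 interferon-inducible genes that fell in DIO callus, from RefSeq on GRCm38.p6. They are shown because the interferon response list held more called genes than any other list. Capitals mark matches to 2 motifs searched on both strands: GAAA followed by any 2 bases and a further GAAA, the core of the interferon-stimulated response element (ISRE) bound by complexes that hold IRF factors, and TTCNNNGAA, the gamma-activated sequence (GAS) bound by STAT dimers. They lie at chr4:156200819-156201068 (minus strand), chr19:34640639-34640888 (plus strand), chr11:49064213-49064462 (minus strand), chr11:58199306-58199555 (plus strand) and chr11:49076337-49076586 (plus strand).
Isg15: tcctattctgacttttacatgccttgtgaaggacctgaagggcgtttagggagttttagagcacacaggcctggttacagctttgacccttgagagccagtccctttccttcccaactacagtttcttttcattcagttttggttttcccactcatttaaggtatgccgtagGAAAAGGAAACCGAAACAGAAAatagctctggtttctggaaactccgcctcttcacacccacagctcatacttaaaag
Ifit1: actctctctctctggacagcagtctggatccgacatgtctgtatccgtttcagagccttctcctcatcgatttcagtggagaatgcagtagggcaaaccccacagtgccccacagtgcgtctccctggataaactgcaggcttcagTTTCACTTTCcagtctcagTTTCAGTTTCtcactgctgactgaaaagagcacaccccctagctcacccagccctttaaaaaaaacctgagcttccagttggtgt
Tgtp2: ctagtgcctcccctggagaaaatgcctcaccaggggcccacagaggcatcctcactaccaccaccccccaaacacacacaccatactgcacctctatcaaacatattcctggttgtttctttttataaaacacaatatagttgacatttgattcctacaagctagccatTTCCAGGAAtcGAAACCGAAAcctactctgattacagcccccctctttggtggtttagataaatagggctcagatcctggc
Igtp: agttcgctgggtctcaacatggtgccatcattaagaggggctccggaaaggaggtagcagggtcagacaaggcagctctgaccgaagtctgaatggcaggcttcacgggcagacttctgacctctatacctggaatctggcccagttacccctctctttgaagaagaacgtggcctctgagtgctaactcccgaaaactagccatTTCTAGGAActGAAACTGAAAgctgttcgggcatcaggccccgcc
Ifi47: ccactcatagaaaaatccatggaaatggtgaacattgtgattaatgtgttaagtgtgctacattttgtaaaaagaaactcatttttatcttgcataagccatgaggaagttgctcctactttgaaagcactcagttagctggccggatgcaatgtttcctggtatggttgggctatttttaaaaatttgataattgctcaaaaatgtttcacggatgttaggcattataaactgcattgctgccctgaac

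The Isg15 promoter held 3 ISRE matches that overlap each other and Ifit1 held 2, both without a GAS match. Tgtp2 and Igtp each held 1 match of each motif side by side. Ifi47 had neither motif in this window. Over all 27025 promoters of the table, 3.46% held the ISRE core and 8.13% a GAS. Of the 149 genes that fell in DIO callus, 115 had a promoter in the table, of which 23 (20.0%) held the ISRE core and 14 (12.2%) a GAS. Among these, the interferon response genes accounted for 10 of 22 with an ISRE core (45.5%) and the remaining genes for 13 of 93 (14.0%). These matches are descriptions of sequence, and binding of any factor was not measured.

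Most genes that differed between the diets were lower in obese animals, and the interferon response, leukocyte and MHC class II lists had the most members among them. At an adjusted p under 0.05 (edgeR quasi-likelihood test, Benjamini-Hochberg adjustment), 149 genes were lower in DIO callus (0.948% of the 15722 genes tested) and 21 were higher (0.134%). The CPM of all 170 genes did not overlap between the groups, but these genes were chosen on the same values. Of all genes tested, 12.2% lay without overlap in the lower direction and 11.1% in the higher direction. The median log2 fold change was -1.14 for the genes that fell, 1.08 for the genes that rose and 0.01 for all genes tested. Values of the 170 called genes ran from -3.37 to 2.16. Adjusted p-values of the 170 genes lay close to the threshold, between 0.0199 and 0.0498, and 2913 genes had an unadjusted p under 0.05.

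The number of genes called rested on single libraries. Without Lean replicate 2, or without any 1 of the DIO replicates 1, 2 and 3, edgeR called 0 genes, with 1763, 2776, 2232 and 1961 genes at an unadjusted p under 0.05. Without Lean replicate 3 it called 935 of 16064 genes tested, 555 lower and 380 higher, including all 170. Without Lean replicate 1 it called 200 of 16046, with 96 of the 170 among them. Counts of list members under these omissions, given below, are to be read beside these totals. Under each of the 6 omissions all 170 genes kept their sign and an unadjusted p under 0.05. The same libraries had been used to choose these genes, so this is no independent check. Other ways of fitting the same comparison moved the count both ways. When the d5 libraries shared 1 edgeR fit with those of d3, d7 and d10 (24 libraries), 8 of the 170 genes were called, all lower in DIO callus. DESeq2 called 1107 of 16662 genes tested, 860 lower and 247 higher, including all 170.

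Interferon response genes were lower in all DIO libraries than in all lean libraries for 44 of the 47 list members tested, beside 12.2% of all genes. All 47 had a negative log2 fold change, 30 fell past the threshold and none rose, with a list median of -1.28 beside 0.01 for all genes. Without Lean replicate 1, 17 of the 47 were called, and without Lean replicate 3, 36. The mean level of the list was 4.88, 4.76 and 4.70 log2 CPM in Lean replicates 1 to 3 and 3.22, 3.78 and 3.47 log2 CPM in DIO replicates 1 to 3.

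Ifi47, an immunity-related GTPase (GRCm38 chr11:49076587-49096974), measured 27, 25.3 and 23 CPM in the lean libraries and 8.91, 8.19 and 8.53 CPM in the DIO libraries. The groups were separated with little spread inside either, and the log2 fold change was -1.55 ± 0.13 (SE, n = 3 per group, adjusted p = 0.0199, edgeR). Igtp, another GTPase of this family, measured 32.2, 29.8 and 28.2 CPM in lean callus and 11.3, 12.3 and 11.5 CPM in DIO callus, a log2 fold change of -1.37 ± 0.12 (adjusted p = 0.0199, edgeR). Usp18, a protease that removes ISG15 from proteins and dampens type I interferon signalling, measured 11.2, 15.5 and 13.5 CPM in lean callus against 3.26, 4.43 and 3.72 CPM. All 3 lean values of Usp18 exceeded the highest DIO value (log2 fold change -1.82 ± 0.21, adjusted p = 0.0296, edgeR).

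Interferon-inducible genes were among the largest decreases of the called genes. Mx1, of the dynamin-like GTPase family, measured 26.2, 22.7 and 25 CPM in lean callus and 2.39, 7.33 and 7.14 CPM in DIO callus. DIO replicate 1 was lowest, and the log2 fold change of Mx1 was -2.15 ± 0.37 (adjusted p = 0.0475, edgeR). Its paralogue Mx2 fell from 9.40 ± 1.40 to 2.14 ± 0.61 CPM (SD, n = 3). Ifi206, of the PYHIN family, fell from 4.32 ± 0.412 to 0.578 ± 0.163 CPM, and Tgtp2, a T-cell-specific GTPase, from 2.37 ± 0.363 to 0.452 ± 0.0181 CPM. The guanylate-binding protein Gbp8 fell from 7.32 ± 1.59 to 1.72 ± 0.364 CPM, and Slfn1, of the growth-regulating schlafen family, from 34.7 ± 9.84 to 8.26 ± 3.23 CPM. Near-identical stretches link Igtp with Irgm2, Mx1 with Mx2, Gbp8 with Gbp4, Tgtp2 with Gm12185 and Ifi206 with Ifi213, so reads of these pairs may have been divided uncertainly.

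Genes of the signalling pathway and further targets were chosen after their values were seen. Stat2, a transcription factor activated by type I receptors, fell with a log2 fold change of -0.89 ± 0.12 (adjusted p = 0.0347, edgeR), and its partner Irf9 from 64.3 ± 5.15 to 35.1 ± 2.93 CPM. Irf7, which amplifies type I interferon production, fell further, from 134, 96.5 and 88.1 CPM to 17.6, 42.4 and 30.7 CPM (log2 fold change -1.82 ± 0.31, adjusted p = 0.0458, edgeR). Isg15, a ubiquitin-like protein, fell from 27.4 ± 3.33 CPM to 4.04, 11.1 and 7.37 CPM, and Ifit1, which binds foreign RNA, from 22.7, 18.6 and 17.4 CPM to 3.31, 7.82 and 4.88 CPM. DIO replicate 1 was the lowest library for Irf7, Isg15, Ifit1 and Mx1, whereas Ifi47 and Igtp were even across the DIO libraries.

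Receptors differed by less, and ligands were at the limit of detection. Ifnar2, a chain of the type I receptor, measured 53.8 ± 2.66 CPM in lean and 36.5 ± 5.03 CPM in DIO callus (adjusted p = 0.0817, edgeR), and Ifnar1 111 ± 5.23 and 96.6 ± 11.7 CPM with overlapping groups (adjusted p = 0.429, edgeR). The gamma receptor chains Ifngr1 and Ifngr2 had log2 fold changes of -0.37 ± 0.11 and -0.39 ± 0.09, without passing the threshold (adjusted p = 0.136 and 0.0915, edgeR). These 4 receptor genes were chosen after their values were seen. Ifng itself had 5, 0 and 3 reads in the lean libraries and no read in any DIO library, and Ifnb1 and Ifna4 had no read in any of the 6. A count of 0 allows up to 3 reads per library, so a difference in these ligands was not detectable at this depth.

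**Figure D1:**
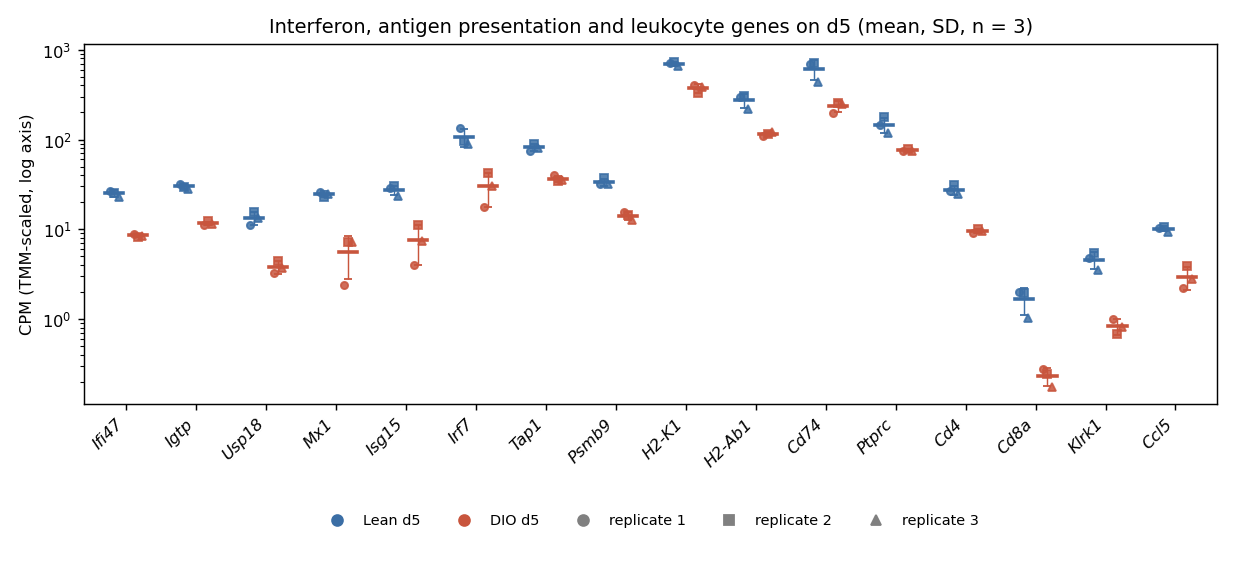
CPM on a log axis of 16 genes that fell in DIO callus on d5, with 1 point per library, the mean as a bar and the SD over 3 libraries. Lean points lie above DIO points for all 16 genes, from the abundant H2-K1 (695 ± 40.8 against 372 ± 41.0 CPM) to the scarce Cd8a (1.66 ± 0.553 against 0.232 ± 0.0522 CPM).

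Antigen-presentation genes fell with the interferon group, for both MHC classes. Tap1, which pumps peptides into the endoplasmic reticulum, measured 73.9, 89.6 and 81.5 CPM in lean and 40.1, 34.7 and 35.4 CPM in DIO callus (log2 fold change -1.15 ± 0.12, adjusted p = 0.0221, edgeR). Its neighbour Psmb9, a subunit of the immunoproteasome, measured 32.3, 37.0 and 31.6 CPM against 15.7, 14.3 and 12.8 CPM (log2 fold change -1.24 ± 0.13, adjusted p = 0.0252, edgeR). Lean and DIO libraries did not overlap for either gene. The class I heavy chains H2-K1 and H2-D1, chosen after their values were seen, fell with log2 fold changes of -0.90 ± 0.13 and -0.93 ± 0.14, and share near-identical sequence. B2m, their light chain, measured 797 ± 64.3 CPM in lean and 511 ± 42.4 CPM in DIO callus without passing the threshold (adjusted p = 0.0653, edgeR).

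MHC class II genes formed the core of the changes in the dendritic cell and MHC class II list, of which 7 of 32 tested genes fell and none rose. The list median was -1.12 on the log2 scale, and 23 genes lay without overlap in the lower direction, beside 12.2% of all genes tested. H2-Ab1, the beta chain of I-A (GRCm38 chr17:34257689-34269419), measured 299.8, 309 and 219.7 CPM in lean callus and 108, 115 and 123 CPM in DIO callus. The lowest lean library, replicate 3, stayed well above the highest DIO library, and the log2 fold change was -1.26 ± 0.15 (adjusted p = 0.0296, edgeR). H2-Eb1, H2-Aa and Cd74, the invariant chain, had log2 fold changes of -1.30 ± 0.17, -1.33 ± 0.22 and -1.38 ± 0.21. H2-DMa, which helps load peptides, fell from 33.7 ± 6.79 to 16.1 ± 0.891 CPM, and Irf8, a transcription factor of dendritic cells and monocytes, from 79.0 ± 17.6 to 36.1 ± 3.77 CPM. Itgax and Cd86, used to recognise dendritic cells and their activation, did not overlap between groups but missed the threshold (adjusted p = 0.0924 and 0.117, edgeR). Cd80 and Cd40, other costimulatory molecules, overlapped (adjusted p = 0.459 and 0.608, edgeR). Leaving out Lean replicate 1 gave 3 called genes of the 32, and leaving out Lean replicate 3 gave 18.

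Pan-leukocyte genes moved with these groups. All 40 tested genes of the leukocyte list were lower in every DIO library than in every lean library, beside 12.2% of all genes. Of the 40, 14 were called (median log2 fold change -0.98). Their summed CPM was 4442 to 6831 in lean and 2530 to 2971 in DIO callus. The part of leukocyte number in the interferon and MHC results was not tested. Ptprc, which encodes the common leukocyte antigen CD45, measured 145, 176 and 119 CPM in lean and 73.8, 78.9 and 73.9 CPM in DIO callus. Its DIO values were nearly equal and all lay under the lowest lean value (log2 fold change -0.96 ± 0.15, adjusted p = 0.0432, edgeR). Cd84 and Fcer1g, an adhesion receptor and the signalling chain of Fc receptors, fell with log2 fold changes of -0.96 ± 0.13 and -0.89 ± 0.13. Laptm5, a lysosomal protein of blood cells, and Cd52 fell with log2 fold changes of -1.01 ± 0.15 and -1.48 ± 0.23. Leaving out Lean replicate 1 gave 21 called genes of the 40, and leaving out Lean replicate 3 gave 27.

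T and NK cell genes were scarce and lower in DIO callus, with 4 of 28 called and a median log2 fold change of -1.61. Of these 28, 19 lay without overlap in the lower direction, beside 12.2% of all genes tested. Cd4, a coreceptor of helper T cells that macrophages and dendritic cells also carry, measured 26.7, 31 and 24.6 CPM in lean and 9.19, 10.0 and 9.52 CPM in DIO callus (log2 fold change -1.52 ± 0.14, adjusted p = 0.0199, edgeR). Cd8a, the coreceptor of cytotoxic T cells, measured 2.00, 1.97 and 1.02 CPM against 0.276, 0.246 and 0.174 CPM (log2 fold change -2.78 ± 0.47, adjusted p = 0.0458, edgeR). The groups were apart for both genes. They were also apart for Cd3e, a chain of the T cell receptor complex. Cd3e stood at 0.847, 1.48 and 0.927 CPM in lean and 0.184, 0 and 0.464 CPM in DIO callus. Cd3e missed the threshold (adjusted p = 0.172, edgeR), as did the T cell receptor constant genes Trbc1 and Trbc2, which share near-identical sequence (adjusted p = 0.0665 and 0.116, edgeR).

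Klrk1, the activating receptor NKG2D, measured 4.84, 5.41 and 3.51 CPM in lean and 1.01, 0.677 and 0.813 CPM in DIO callus (log2 fold change -2.44 ± 0.32, adjusted p = 0.0306, edgeR). Il2rb, the shared receptor chain for interleukin 2 and interleukin 15, fell from 5.49 ± 0.938 to 1.47 ± 0.536 CPM, and Cd226, an adhesion receptor of T and NK cells, from 2.08 ± 0.417 to 0.292 ± 0.147 CPM. Ccl5, a chemokine made by T cells, NK cells and macrophages, measured 10.3, 10.8 and 9.41 CPM in lean and 2.21, 3.94 and 2.79 CPM in DIO callus. It was the gene that passed among 37 inflammatory cytokines and chemokines (log2 fold change -1.77 ± 0.25, adjusted p = 0.0384, edgeR), and the list median was -0.36. Tnf, an inflammatory cytokine, and Cxcl16, a chemokine, missed the threshold (adjusted p = 0.279 and 0.0923, edgeR). By RT-qPCR, another measure of RNA, the paper reported significantly higher Cxcl16 in DIO than in lean callus on d5. Klrb1c, the NK receptor NK1.1, overlapped between groups. Without Lean replicate 1, 3 of 29 T and NK genes tested were called, and without Lean replicate 3, 13 of 33, of which 12 were lower.

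Myeloid lists were lower to different degrees. Of 40 monocyte and macrophage genes, 3 fell, beside 0.948% of all genes tested, and the median log2 fold change was -0.55. In the lower direction 24 of the 40 lay without overlap, beside 12.2% of all genes, and DESeq2 called 19 lower. Lyz2, the lysozyme of myeloid cells, measured 2938, 3885 and 2651 CPM in lean and 1461, 1482 and 1574 CPM in DIO callus (log2 fold change -1.07 ± 0.18, adjusted p = 0.0433, edgeR). Fcgr4, an Fc receptor, and Clec7a, the beta-glucan receptor dectin-1, fell with log2 fold changes of -1.01 ± 0.14 and -1.35 ± 0.22, with no overlap between groups. The general macrophage genes Csf1r, Cd68 and Adgre1 had log2 fold changes of -0.48 ± 0.14, -0.48 ± 0.13 and -0.71 ± 0.24, and none passed (adjusted p = 0.137, 0.109 and 0.178, edgeR). Without Lean replicate 3, 16 of the 40 were called, beside 935 of all 16064 genes tested. Without Lean replicate 1, 2 of the 40 were called, beside 200 of 16046.

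Neutrophil, B cell and erythroid genes had more negative list medians but wide spread among the lean libraries. The neutrophil list had a median of -1.66 with 1 of 37 genes called, and its mean level was 5.21, 7.21 and 6.66 log2 CPM in Lean replicates 1 to 3 and 5.84, 4.70 and 4.48 log2 CPM in DIO replicates 1 to 3, so that the groups overlapped. Ly6g, a surface marker of neutrophils, measured 8.71, 50.5 and 34.8 CPM against 14.1, 5.05 and 2.61 CPM (adjusted p = 0.183, edgeR). The called gene, Cybb, encodes the catalytic subunit of the phagocyte NADPH oxidase and fell from 150.2 ± 47.8 to 45.7 ± 7.06 CPM (log2 fold change -1.72 ± 0.23, adjusted p = 0.0342, edgeR). The B cell list had a median of -1.89 with 0 of 24 genes called by edgeR and 12 by DESeq2, and its mean level was 2.42, 4.24 and 2.50 log2 CPM in Lean replicates 1 to 3 and 2.04, 1.47 and 1.24 log2 CPM in DIO replicates 1 to 3. The erythroid and platelet list had a median of -1.88 with 1 of 29 called, the platelet chemokine Pf4 (106 ± 11.1 against 59.3 ± 3.63 CPM), which macrophages also make. Without Lean replicate 1, 7 neutrophil and 3 erythroid and platelet genes were called, beside 200 of all 16046 genes tested. Without Lean replicate 3, 9 of 27 B cell genes tested were called, beside 935 of 16064.

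**Figure D2:**
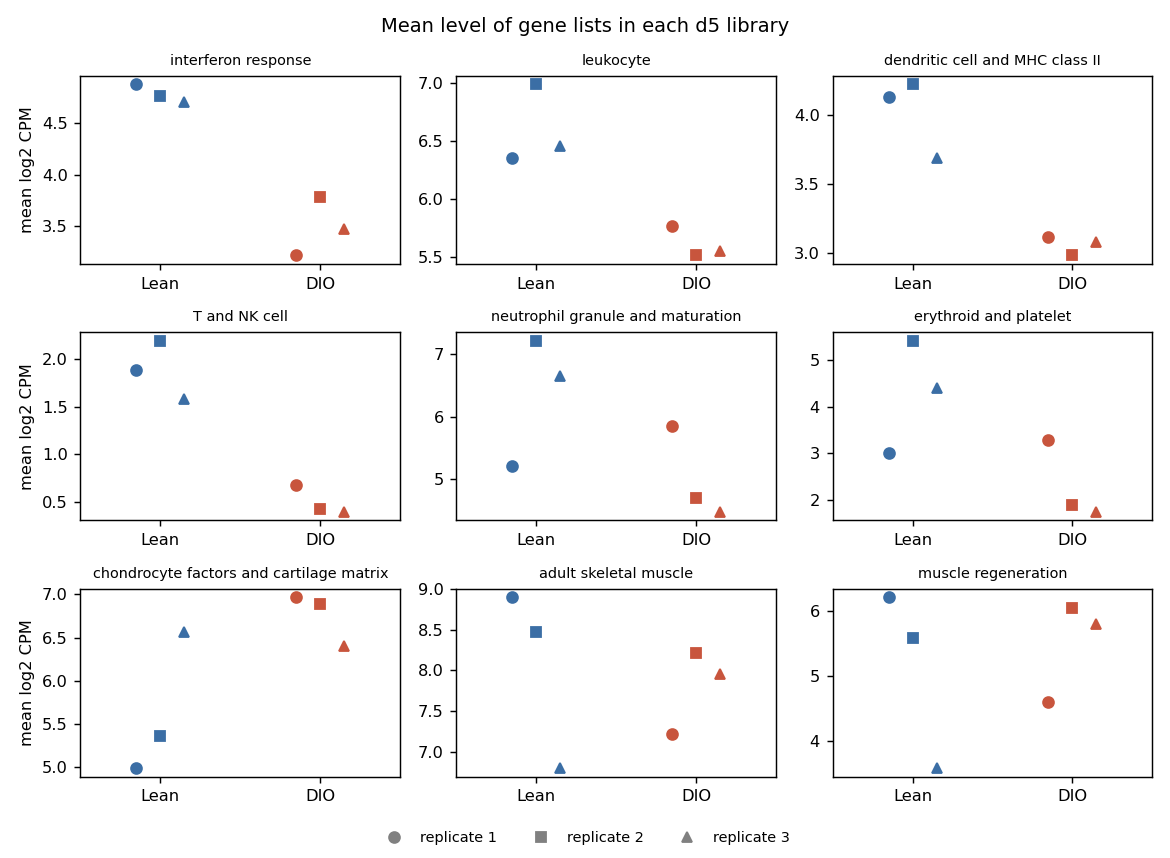
Mean log2 CPM of 9 gene lists in each of the 6 d5 libraries, with 1 point per library. The interferon response (4.70 to 4.88 in lean, 3.22 to 3.78 in DIO callus) and leukocyte points separate the diets, whereas neutrophil and cartilage points overlap.

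The 20 genes tested of the study's flow cytometry panel, whose products were stained on callus cells, cover the main immune cell types. Of these, 6 fell and none rose, with a median log2 fold change of -1.28. Without overlap in the lower direction lay 15, beside 12.2% of all genes tested. The 6 were Ptprc, Cd4, H2-Ab1, H2-Eb1, H2-Aa and Cd8a. Itgam, which encodes CD11b, measured 101, 209 and 158 CPM against 91.6, 65.9 and 76.4 CPM without passing (adjusted p = 0.1, edgeR), and 68.7% of its exon length also lies in Gm49368. Ly6c2, a marker of classical monocytes, measured 47.0, 174 and 95.1 CPM against 43.3, 20.7 and 13.5 CPM (adjusted p = 0.11, edgeR). Its near-identical neighbour Ly6c1, expressed in endothelium, had a log2 fold change of 0.19 ± 0.13 with overlapping groups (adjusted p = 0.482, edgeR). The count was 4 without Lean replicate 1 and 11 without Lean replicate 3. By flow cytometry on d5, the paper reported higher proportions of dendritic cells in DIO than in lean callus. Granulocytes and monocytes were lower there, and most lymphoid populations were similar. Larger shares of macrophages and of some dendritic subsets carried MHC class II and costimulatory molecules. Those values are shares of cells by surface protein, whereas RNA of whole callus was measured here. From its RNA sequencing of this series, the paper reported reduced immune response and leukocyte activation in DIO callus, with the most significant changes on d5. It also reported accelerated chondrocyte differentiation and upregulated proteoglycan synthesis in DIO callus on d5 and d7.

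Other genes were among the largest decreases of the called genes. Fosb, an immediate-early transcription factor, measured 15.3, 28.2 and 13.4 CPM in lean and 3.31, 2.77 and 3.25 CPM in DIO callus (log2 fold change -2.60 ± 0.31, adjusted p = 0.0296, edgeR). Slamf8, a receptor of activated macrophages, fell from 6.45 ± 1.61 to 1.36 ± 0.471 CPM. Genes of the SERPINA3 family of protease inhibitors moved in opposite directions. Serpina3g fell from 29.9, 28.9 and 19.5 CPM to 8.73, 6.22 and 5.40 CPM (log2 fold change -1.94 ± 0.24, adjusted p = 0.0296, edgeR), and Serpina3f, which shares near-identical sequence with it, from 2.49 ± 1.53 to 0.232 ± 0.0522 CPM. Serpina3n, an acute-phase member of the same cluster, rose from 45.4, 59 and 45.9 CPM to 91.5, 85 and 77.4 CPM (log2 fold change 0.76 ± 0.13, adjusted p = 0.0498, edgeR).

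The 21 genes that rose in DIO callus included growth-factor, water-channel and metabolic genes. Gdf5, a ligand of the BMP family that acts in cartilage and joint formation (GRCm38 chr2:155941023-155945367), had the largest increase. It measured 1.45, 1.11 and 2.83 CPM in lean and 8.64, 6.83 and 8.94 CPM in DIO callus (log2 fold change 2.16 ± 0.36, adjusted p = 0.0445, edgeR). All DIO values exceeded the highest lean value, that of replicate 3. Gdf5 overlaps Gm15557 on the opposite strand over 40.3% of its exon length, and the strand setting of the counting is not given in the sources used here, so reads of both genes cannot be told apart. The same holds for Gpr39, a zinc-sensing receptor that overlaps Lypd1 and rose from 1.60 ± 0.558 to 6.44 ± 1.40 CPM.

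Il1rl1 encodes ST2, the receptor of interleukin 33 (GRCm38 chr1:40429570-40465415), and measured 16.3, 15 and 14.8 CPM in lean and 32.8, 40.9 and 68.0 CPM in DIO callus. Lean libraries were tight while DIO libraries spread upward, with a log2 fold change of 1.62 ± 0.26 (adjusted p = 0.0432, edgeR). Its ligand Il33, chosen after its values were seen, measured 22.7, 15 and 6.78 CPM against 25, 28.7 and 33.6 CPM and missed the threshold (adjusted p = 0.222, edgeR). The water channels Aqp2 and Aqp5 are neighbours on the plus strand (chr15:99579055-99584547 and chr15:99590782-99594829) and rose together. Aqp2 measured 4.90, 7.68 and 5.75 CPM in lean and 20.2, 14.3 and 17.9 CPM in DIO callus, and Aqp5 3.63, 6.39 and 6.05 CPM against 18.3, 13.2 and 15.5 CPM (log2 fold changes 1.51 ± 0.22 and 1.55 ± 0.25, adjusted p = 0.0384 and 0.0432, edgeR). Aqp1, the water channel of endothelium and red cells, overlapped between groups (adjusted p = 0.764, edgeR) and was chosen after its values were seen.

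Metabolic and matrix enzymes were also among the increases. Ak4, a mitochondrial adenylate kinase induced by hypoxia, measured 4.11, 4.24 and 7.31 CPM in lean and 17.4, 16.3 and 16.3 CPM in DIO callus (log2 fold change 1.66 ± 0.24, adjusted p = 0.0384, edgeR). Angptl4, a secreted inhibitor of lipoprotein lipase and a target of PPAR factors, measured 156, 133 and 139.8 CPM against 287, 236 and 382 CPM (log2 fold change 1.08 ± 0.18, adjusted p = 0.0458, edgeR). Csgalnact1, which starts chondroitin sulfate chains, rose from 37.1 ± 2.01 to 59.1 ± 5.24 CPM, and the arylsulfatase gene Arsi from 53.3 ± 15.2 to 124 ± 18.1 CPM. Crabp2, a carrier of retinoic acid, rose from 13.5 ± 3.05 to 32.9 ± 3.55 CPM, Gfra1, a receptor of GDNF, from 24.3 ± 5.14 to 47.5 ± 4.42 CPM, and the neural genes Nrn1 and Brinp1 with log2 fold changes of 1.19 ± 0.17 and 1.29 ± 0.22. Lean and DIO libraries did not overlap for any of these genes. Nrn1 overlaps Fars2 on the opposite strand over 22.3% of its exon length.

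**Figure D3:**
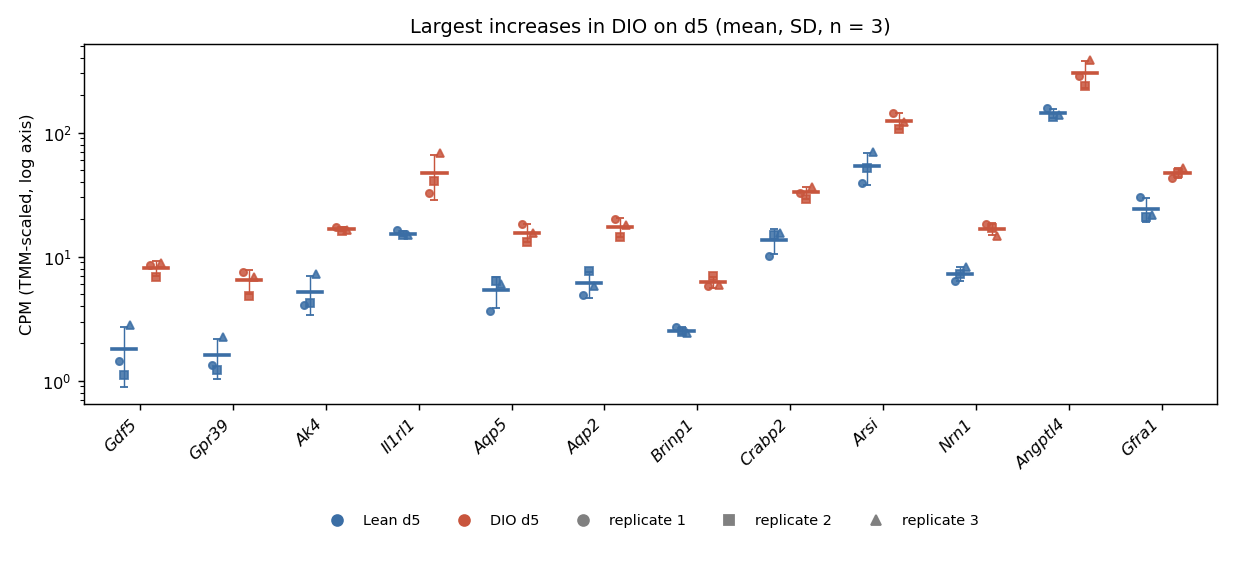
CPM on a log axis of the 12 largest increases among the 21 genes called higher in DIO callus on d5. Each library is 1 point, with the mean as a bar and the SD over 3 libraries. Every DIO point lies above every lean point of the same gene, from Gdf5 (1.80 ± 0.911 against 8.14 ± 1.14 CPM) to Gfra1.

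Cartilage genes leaned toward DIO callus without a called gene. Of 37 chondrocyte factors and matrix genes, 36 had a positive log2 fold change and the median was 0.91. In the higher direction 11 lay without overlap, beside 11.1% of all genes tested. Of the 37, edgeR called 0 and DESeq2 called 7, the latter beside 1107 of all 16662 genes. Acan, the large proteoglycan of cartilage, measured 280.0, 525 and 1169 CPM in lean and 1795, 1608 and 1145 CPM in DIO callus (log2 fold change 1.20 ± 0.46, adjusted p = 0.223, edgeR). Col2a1 measured 1051, 1757 and 6162 CPM against 10685, 8074 and 5275 CPM (log2 fold change 1.42 ± 0.61, adjusted p = 0.27, edgeR). Lean replicate 3 stood inside the DIO range for both genes. Without this library 24 of 38 genes tested were called, all higher, beside 935 of all 16064 genes, and the list median was 1.46. Acan, Col2a1 and Sox9, the master transcription factor of chondrocytes, passed in this fit (adjusted p = 0.0198, 0.0146 and 0.0248, edgeR). Lean replicate 3 was also the library with the least muscle RNA, and the part of that difference was not tested.

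Later stages of the skeletal lineage differed less. Hypertrophy and hedgehog genes had a median log2 fold change of 0.46 with 0 of 25 called by edgeR and 1 by DESeq2, and Col10a1, the collagen of hypertrophic cartilage, measured 135, 78.4 and 975 CPM against 1066, 677 and 279.6 CPM. In the ossification list, Gdf5 was the 1 gene called of 41, and the median was 0.21. Ibsp and Sp7, a bone matrix protein and an osteoblast transcription factor, overlapped between groups (adjusted p = 0.354 and 0.467, edgeR). Bglap, which encodes osteocalcin and shares sequence with Bglap2, lay the other way at 64.1, 118 and 92.2 CPM in lean and 44.6, 19.8 and 22.3 CPM in DIO callus (adjusted p = 0.0675, edgeR). Col1a1 had a log2 fold change of 0.04 ± 0.30 (adjusted p = 0.962, edgeR). Fibrous matrix genes had a median of 0.27, with 0 of 43 called by edgeR. DESeq2 called 4 of the 43, beside 1107 of all 16662 genes. Without Lean replicate 3, 10 hypertrophy, 12 ossification and 6 fibrous matrix genes were called, beside 935 of all 16064 genes tested.

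Metabolic and vascular lists showed smaller median shifts than the cartilage list (0.91). Cholesterol and fatty acid genes had a median log2 fold change of 0.32 with Angptl4 as the 1 gene called of 36. Of the 36, 14 lay without overlap in the higher direction, beside 11.1% of all genes tested. Elovl6, which elongates saturated fatty acids, measured 14.1, 14.6 and 14.8 CPM in lean and 20.9, 21.2 and 23.3 CPM in DIO callus (adjusted p = 0.0669, edgeR). Glycolysis and hypoxia genes likewise had a median of 0.32 with 0 of 30 called by edgeR and 6 by DESeq2. Of these 30, 14 lay without overlap in the higher direction, beside 11.1% of all genes tested. Slc2a1, the glucose transporter GLUT1, measured 27, 27.9 and 41.4 CPM against 57.1, 53.1 and 53.6 CPM (adjusted p = 0.0814, edgeR), and P4ha1, a collagen prolyl hydroxylase, had a log2 fold change of 0.81 ± 0.19 (adjusted p = 0.0899, edgeR). Adipocyte genes were mostly lower, with a median of -0.50 and 0 of 17 called by edgeR against 5 by DESeq2. Adipoq, the hormone adiponectin, measured 7.86, 26.5 and 7.85 CPM in lean and 2.02, 1.35 and 2.61 CPM in DIO callus (adjusted p = 0.0613, edgeR), and Pparg, the regulator of fat cell differentiation, had a log2 fold change of -1.07 ± 0.26 (adjusted p = 0.0938, edgeR). Endothelial, pericyte, cell cycle, osteoclast and Schwann cell lists had medians of -0.09, -0.08, 0.05, 0.13 and 0.17, with 0 genes called by edgeR. DESeq2 called 2 of 30, 2 of 17, 0 of 40, 3 of 24 and 0 of 19, beside 1107 of all 16662 genes. Cldn5 and Vwf, endothelial genes of tight junctions and clotting, did not overlap between groups but missed the threshold (adjusted p = 0.0665 and 0.0856, edgeR). Growth factor and WNT antagonist genes had a median of 0.22, adult muscle genes -0.36, muscle regeneration genes 0.18 and the 4 keratinocyte genes tested 0.49. Of these lists edgeR called 0 genes, and DESeq2 5 of 49, 0 of 34, 1 of 19 and 0 of 4. The complement and acute phase list had a median of -0.58 with 2 genes lower and 1 higher of 21, and the proteoglycan synthesis list 0.25 with 1 of 38 higher.

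**Figure D4:**
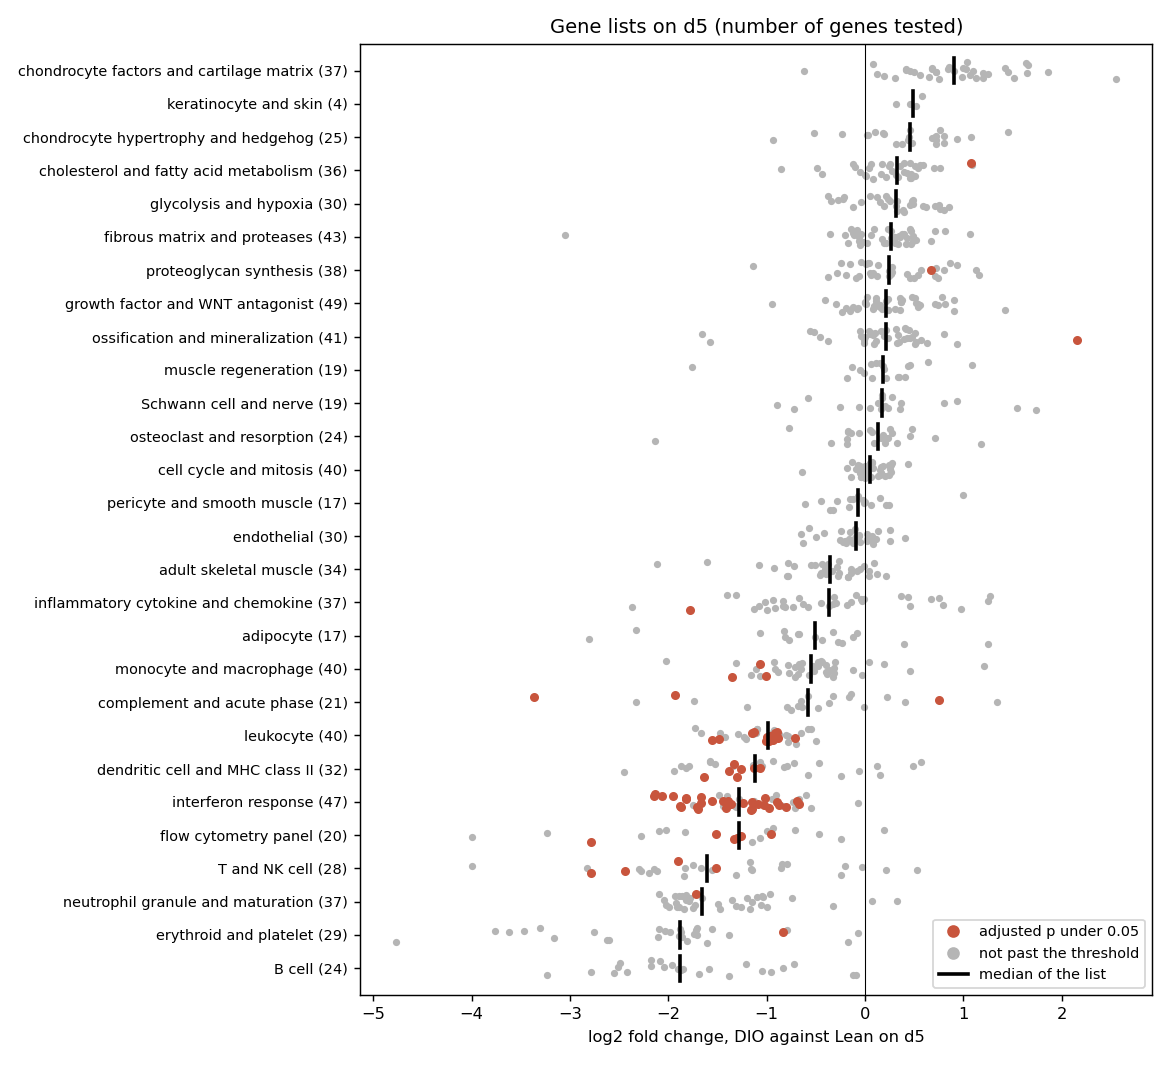
Log2 fold change of DIO against lean callus on d5 for every tested gene of 28 lists, with 1 point per gene, red where the adjusted p was under 0.05 and a black mark at the list median. Immune lists lie to the left with red points concentrated in the interferon list (30 of 47 genes), and the cartilage list lies to the right with none.

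The genes called on d5 were followed on the other days in separate libraries of other mice. On d3, 141 of the 149 lower genes had the same direction, with a median log2 fold change of -0.56, whereas 49% of all genes tested that day were below 0. On d7 all 149 had the same direction (median -0.83, 50.1% of all genes) and 27 were called lower, beside 2.32% of all 15753 genes called that day in either direction. On d10 only 13 of 149 were still lower in DIO callus and the median was 0.39 (47.8% of all genes). The 21 higher genes kept their direction in 18 cases on d3 (51% of all genes) and 21 on d7 (49.9% of all genes), where the median was 1.64 and 8 were called, and in 2 cases on d10 (52.2% of all genes) with a median of -0.81. edgeR called 0% of genes between diets on d3 and 0% on d10, with 2374 and 1082 genes at an unadjusted p under 0.05 and 743 and 56 called by DESeq2. Among the 47 interferon genes, 11 were called lower on d7.

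**Figure D5:**
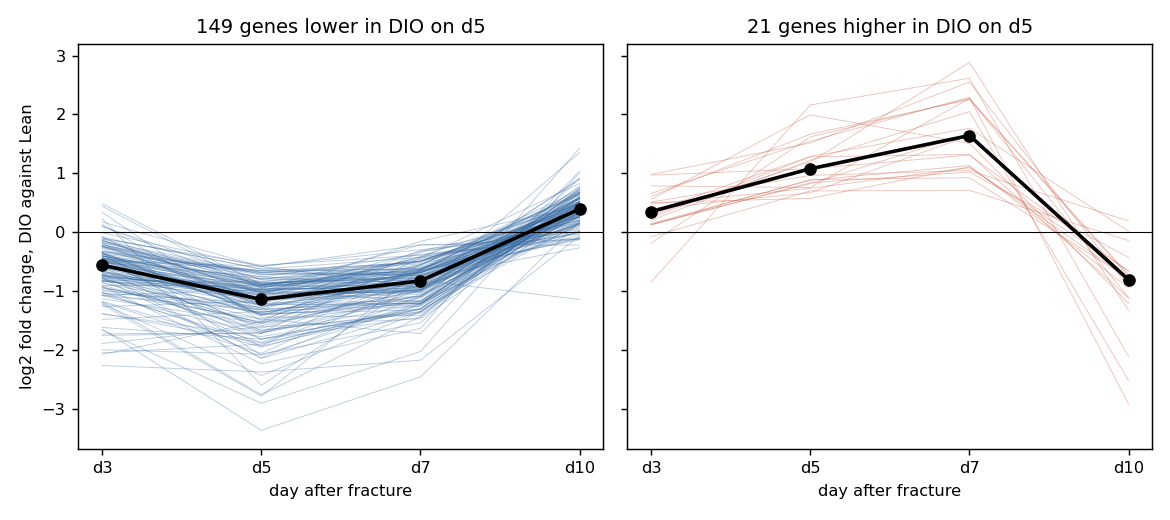
Log2 fold change of DIO against lean callus on d3, d5, d7 and d10 for the 149 genes lower and the 21 genes higher on d5, with 1 line per gene and the median in black. The medians keep their sign from d3 to d7 and lie on the other side of 0 on d10 (0.39 and -0.81), and the d5 values were used to choose the genes.

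Whether the diet effect on d5 differed from that on d3, d7 or d10 was tested as an interaction, with 24 libraries fitted together and 17057 genes. These tests share the d5 libraries with the comparison above. Between d5 and d3 edgeR called 0% of genes (736 at an unadjusted p under 0.05, 1 by DESeq2). Between d5 and d7 it called 1 gene (0.00586%), and between d5 and d10 it called 49 genes (0.287%), of which 26 were more negative on d5 and 23 more positive, and 19 had also been called on d5. Ifi47 held at 22 ± 7.82, 24.4 ± 1.96 and 20.3 ± 1.64 CPM in lean callus on d3, d5 and d7 and stood at 11.7 ± 4.60 CPM on d10. In DIO callus the same gene measured 10.0 ± 1.01, 8.30 ± 0.358 and 8.91 ± 3.13 CPM on d3, d5 and d7 and 17.3 ± 0.957 CPM on d10, above the lean mean. The d5 difference minus the d10 difference was -2.13 ± 0.39 on the log2 scale (adjusted p = 0.0465, edgeR).

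Gdf5 followed the reverse course. In lean callus it measured 1.58 ± 0.306, 1.75 ± 0.886 and 3.65 ± 1.25 CPM on d3, d5 and d7 and 27.3 ± 27.4 CPM on d10, with values from 7.71 to 58.7 among the d10 libraries. In DIO callus it measured 0.871 ± 0.647 CPM on d3, 7.90 ± 1.11 CPM on d5 and 22.3 ± 7.04 CPM on d7, and then 6.23 ± 2.93, 0.963 ± 0.310 and 0.688 ± 0.226 CPM on d10, d14 and d21. The d5 difference minus the d10 difference was 4.28 ± 0.82 for Gdf5 and 4.34 ± 0.90 for Acan on the log2 scale (adjusted p = 0.0473 for both, edgeR). Acan reached 3093 ± 788 CPM in DIO callus on d7 and 2861 ± 3073 CPM in lean callus on d10, the latter with values from 1029 to 6408 CPM. The calls between d5 and d10 also rested on single libraries. Omitting Lean d5 replicate 1 or 2, or DIO d5 replicate 1, 2 or 3, left 0 genes called by edgeR (2813, 2464, 3039, 3021 and 2783 at an unadjusted p under 0.05), and omitting Lean d5 replicate 3 gave 466, with all 49 among them.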

How the data were processed

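The authors adapter-trimmed and demultiplexed the reads with bcl2fastq, removed low-quality sequence with BBDuk, aligned to GRCm38 with HISAT2 2.1.0 and counted with HTSeq, whose version, strand option and annotation are not given in the sources used here. The authors deposited these values as raw read counts per gene, without normalization, for 43629 Ensembl identifiers. Symbols and positions were taken from GENCODE M21 on GRCm38, which held 42462 of these identifiers.

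Samples were grouped by the diet and day in the labels. Counts of the 6 d5 libraries were filtered with filterByExpr, scaled with TMM factors and compared with edgeR 4.0.16 (quasi-likelihood F-test, two-sided; R 4.3.3), with Benjamini-Hochberg adjustment over all genes and a threshold of 0.05. No covariate was used. The authors tested single comparisons with DESeq2, and DESeq2 1.42.0 was an alternative here. Interactions between days came from edgeR, with the 24 libraries of both diets up to d10 in 1 fit. CPM are scaled over the d5 libraries, or over all 30 libraries for levels across days, and compare 1 gene between libraries, not genes with each other. List levels used a prior count of 2. Both tests were also run on simulated counts with known changes, and those outcomes are not reported here.

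The 28 gene lists and the comparison were chosen with earlier results of these data known. Named genes are those of the flow cytometry panel and those the study names, the 12 largest changes each way among called genes without overlap and with a mean of at least 1 CPM, at most 5 genes per list by adjusted p (the first 2 where fewer than 2 passed), markers of cell types, and at most 5 genes per interaction test that also passed on d5. Other genes are said to be chosen after their values were seen. Single values of some genes are not reported here.

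Each callus came from 1 mouse, and precision is set by 3 mice per group, with counting error added for genes near 3 reads. Same-group libraries differed by a chi-square per degree of freedom of 12.8 to 106, so none was a duplicate. Same-numbered lean and DIO libraries had correlations of deviations from -0.485 to -0.0771, so numbers were not taken as pairs. Of 111 genes of the text, 28 have a near-identical stretch (at least 100 bases at 95% identity, BLAST 2.17.0) in another gene, 11 share exons with a same-strand gene and 20 with one of the opposite strand.

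Alternatives were RLE and upper-quartile factors, a filter of 0.5 CPM in 1 library, no filter but 1 count, a 1.5-fold threshold, the replicate block, 1 fit of more libraries and each library left out in turn.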

Additional observations from a re-analysis of the deposited data

Results flagged for a closer look

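The diet difference changed between days for a small set of genes, by the interaction test of edgeR over 24 libraries. Each value below is the log2 difference of DIO against lean callus on d5 minus that on the other day. Against d7, 1 gene passed. It was Oscar, a receptor of the osteoclast lineage, with a change of 2.352 ± 0.33 (adjusted p = 0.00827, edgeR), from 12.8 ± 1.36 CPM in lean and 21.1 ± 4.34 CPM in DIO callus on d5 to 33.2 ± 6.83 and 10.6 ± 1.44 CPM on d7. Oscar was not called on d5 itself (adjusted p = 0.103, edgeR), and without Lean d5 replicate 2 edgeR called 0 genes against d7 (448 at an unadjusted p under 0.05), while without DIO d5 replicate 2 it called 2.

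Against d10, 49 genes passed. Interferon-inducible genes in this set had more negative differences on d5, by -2.13 for Ifi47, -3.917 for Ifi206, -2.06 for Oas2, -1.8 for Nlrc5 and -1.305 for Irgm1. The immune genes Slfn2, Cytip, Slamf8 and Serpina3g had values of -1.54, -2.212, -3.659 and -2.443. Genes of cartilage and its matrix had more positive differences on d5, by 4.278 for Gdf5, 4.341 for Acan, 3.753 for Arsi and 1.571 for Ugdh, which makes the sugar precursor of glycosaminoglycans. Adipoq had a value of -4.853, with 30.7 ± 15.6 CPM in DIO and 7.41 ± 5.27 CPM in lean callus on d10. Acan, Ugdh and Adipoq were not called on d5. On d10 itself edgeR called 0 genes between the diets (1082 at an unadjusted p under 0.05, 56 by DESeq2), and the lean d10 libraries spread widely for the cartilage genes. Without Lean d5 replicate 1 or 2, or any 1 of the DIO d5 libraries, 0 genes passed against d10, and without Lean d5 replicate 3, 466.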

How the results depend on the processing

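On d5, where 170 genes were called, counts within 1.5 times came from RLE factors (163), upper-quartile factors (173), a filter of 0.5 CPM (169) and a 1.5-fold threshold (167). DESeq2 called 1107 genes, no filter but 1 count 565, the fit of 24 libraries 8, and omissions of 1 library 0 to 935. With the replicate block edgeR called 0 genes on d5 (2090 at an unadjusted p under 0.05), 1 between d5 and d3 and 0 between d5 and d10, although same-numbered libraries did not deviate together. Between d5 and d3, with 0 genes called, DESeq2 called 1. Between d5 and d7, with 1 gene called, upper-quartile factors gave 2, DESeq2 13, no filter 3, 30 libraries in 1 fit 2, and omissions 0 to 2. Between d5 and d10, with 49 called, DESeq2 gave 872, no filter 374, 30 libraries 247, and omissions 0 to 466. Of genes lower on d5 at an unadjusted p under 0.05, 82.3% were also lower on d3, 94.4% on d7 and 22.2% on d10, and 97.0% of those chosen by DESeq2 on d7. Col1a1 turned to -0.15 without Lean replicate 1, -0.10 without Lean replicate 2 and -0.03 without DIO replicate 1, and reached 0.46 without Lean replicate 3. The cause of these changes was not tested. Each omission also left fewer samples. Scaling moved the median of all genes by under 0.1 on the log2 scale. Genes with few reads, such as Ifng, are limited by depth.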

Other observations

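Genes of the circadian clock were chosen after their values were seen, and 1 of those examined passed the threshold. It was Per1, a repressor of the circadian clock that glucocorticoids induce, which measured 62.4, 60.6 and 51.9 CPM in lean and 30.8, 27.9 and 31.2 CPM in DIO callus, without overlap (log2 fold change -0.96 ± 0.11, adjusted p = 0.0296, edgeR). Dbp, an output gene of the clock, and Per3 had log2 fold changes of -1.20 and -0.68 without passing (adjusted p = 0.0577 and 0.059, edgeR). Arntl and Clock, the activators of the clock, lay the other way at 0.46 and 0.47 (adjusted p = 0.13 and 0.118, edgeR), and Cry1 and Cry2 had adjusted p = 0.476 and 0.531. The hours of harvest are not given in the sources used here.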
